A study of Mus musculus with 10 samples.

Results

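Metallothioneins are small, cysteine-rich proteins that bind zinc and copper in the cell. Their genes respond to metal through the zinc-sensing factor MTF1, which binds short metal response elements (MREs) in DNA, and they also respond to glucocorticoids, to interleukin-6 through STAT3 and to oxidative stress. The amount of zinc in a cell is set by the SLC39 (ZIP) proteins, which bring zinc into the cytosol, and the SLC30 (ZnT) proteins, which mostly move it out of the cytosol. Muscle holds a large share of the zinc of the body, and zinc handling in muscle has been studied in cachexia, in which patients and animals with cancer lose weight and muscle.

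The genes described are 5 of the 39179 genes counted, chosen by name: the metallothioneins Mt1 and Mt2, their metal-sensing factor Mtf1, the importer Slc39a14 and the exporter Slc30a1. All 5 were found and all 5 passed the filter on low counts, as did 12690 genes in total. The muscle studied was the tibialis anterior, which lies at the shin and is built mostly of fast fibres, from 4 Control mice and 6 mice of the LLC group. The LLC mice were injected in both flanks with cells of Lewis Lung Carcinoma, a mouse lung cancer line, and the Control mice with buffer alone. Per the sample labels all mice were C57BL/6J and 10 weeks old at injection, and the LLC muscles were taken after 23 days. For Control the labels give 0 days, which leaves the age of these mice at collection unclear. The design text of the series instead names C57BL/10 males, a younger age and 22 days. No gene was altered in either group. Each sample was 1 animal, and all LLC mice sequenced had survived to the end, so mice that died earlier are not represented.

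The Control libraries held 19294257 to 21303084 counted reads and the LLC libraries 16693209 to 19962335. Fast muscle fibre markers were abundant in every sample, with the summed level of the 12 listed genes at 145190 to 154247 CPM (reads relative to the size of the library) in Control and 102699 to 160727 CPM in LLC. Epithelial and lung carcinoma markers summed to at most 0.712 CPM in any sample, and Sftpc and the other 5 listed genes of that kind did not pass the filter. LLC 1 stood apart from the rest of its group. Its distance from the LLC mean across all tested genes was 70.3, against 26.5 to 36.7 for the other LLC samples, and its sum of fast fibre markers, 102699 CPM, was the lowest of all samples. Mitochondrially encoded genes took 22.0% of the counts in LLC 1 and 22.9% in LLC 5, against 25.8% to 27.9% in the other LLC samples and 28.4% to 30.7% in Control. Fold changes are therefore also given without LLC 1 for the 5 genes and for the metal, glucocorticoid and STAT3 response genes that passed the threshold. In bulk muscle, a change in the number of cells of one type and a change in RNA per cell cannot be told apart.

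The comparison of LLC with Control asked which of these genes change as muscle wastes. Both metallothioneins were higher in LLC on average, by far the most in LLC 1 and next in LLC 5. Slc39a14 was high in LLC 1 and close to Control in the other 5 LLC samples. Mtf1 and Slc30a1 had small differences. A gene passed the threshold when its adjusted p was at most 0.05 and its groups differed by 1.5-fold or more, where p came from the quasi-likelihood test of edgeR and was adjusted by Benjamini and Hochberg's method over all 12690 genes. By that rule 0 of the 5 genes passed, while 5.63% of all tested genes did. Before adjustment, p was at most 0.05 for 2 of the 5, Mt1 and Mt2, against 27.4% of all tested genes. The DESeq2 Wald test called Mt1 and Mt2, with 7.56% of the genes it tested called, and limma voom with sample quality weights called Mt2, with 7.86% called. Without LLC 1, edgeR's test called Mt2, with 7.65% of genes called.

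**Figure D1:**
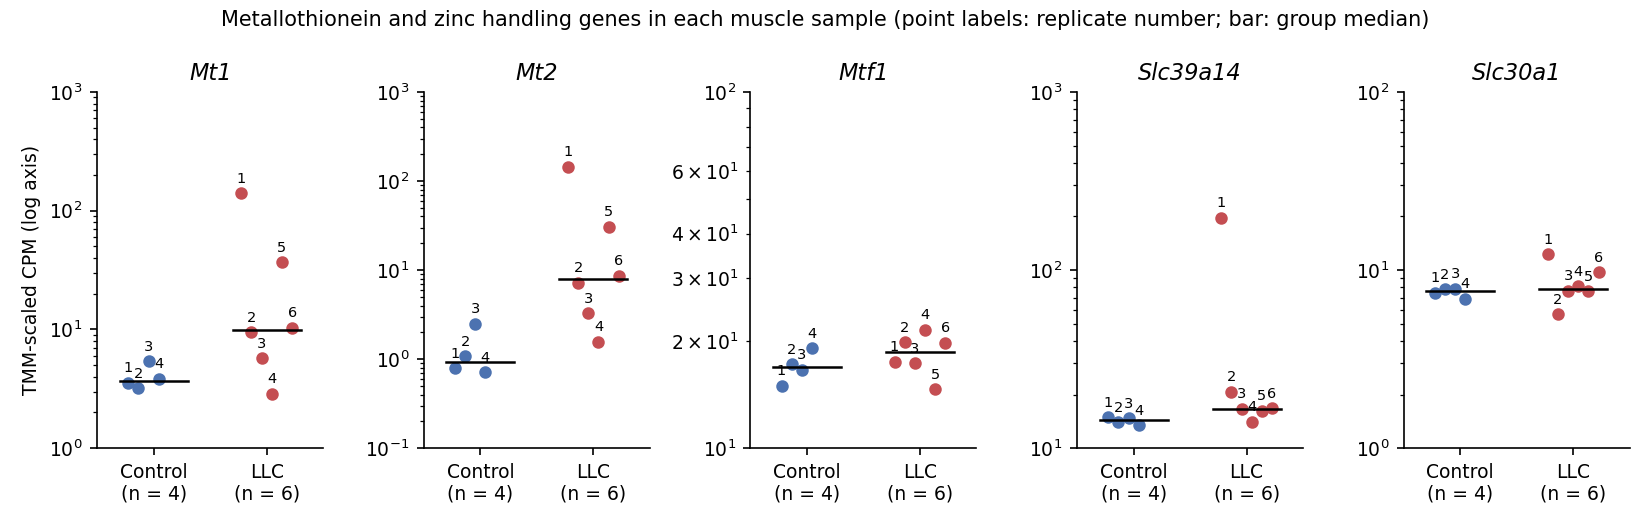
Level of the 5 genes in each of the 4 Control and 6 LLC samples, in CPM scaled by TMM factors on a log axis. Each point is 1 mouse, labelled with its replicate number, and the bar is the group median. LLC 1 is the highest sample for Mt1, Mt2, Slc39a14 and Slc30a1, at 196.6 CPM for Slc39a14, where the other LLC samples lie between 14.1 and 20.7 CPM.

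Mt1 (ENSMUSG00000031765) encodes 1 of the 2 widely expressed metallothioneins. The gene lies on chromosome 8 of the mouse genome (build GRCm38, mm10), from 94179082 to 94180327 on the forward strand, and its exons overlap no other annotated gene. Mt1 stood at 3.55, 3.21, 5.41 and 3.83 CPM in Control 1 to 4. In LLC 1 to 6 it stood at 140.8, 9.49, 5.73, 2.87, 36.7 and 10.3 CPM. LLC 1 was far above every other sample, LLC 5 was second, and the groups overlapped because LLC 4 was the lowest of all 10 samples. The group means were 4.00 ± 0.973 CPM in Control (SD, n = 4) and 34.3 ± 53.6 CPM in LLC (SD, n = 6), so the SD within LLC was larger than its mean. LLC 1 alone gave 68.4% of the summed LLC level. The log2 fold change was 3.10 ± 1.04 (SE), an 8.60-fold difference (edgeR, adjusted p = 0.0937). Without LLC 1 the log2 fold change was 1.73 ± 0.60 (SE; edgeR, adjusted p = 0.0752). Under the DESeq2 Wald test on all samples the adjusted p was 0.0220. The size of the change in Mt1 was therefore not stable, although all LLC samples except LLC 4 were above the Control range. Mt1 stayed short of the threshold in 21 of 22 alternative fits, and only DESeq2 on all samples called it.

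Mt2 (ENSMUSG00000031762), the other widely expressed metallothionein, lies 5513 bases before Mt1 on the same strand, from 94172664 to 94173568. It had the largest change of the 5 genes. Control 1 to 4 had 0.794, 1.09, 2.49 and 0.712 CPM, from 15, 22, 46 and 13 reads. The 6 LLC samples had 144.2, 7.23, 3.30, 1.56, 30.8 and 8.66 CPM, from 2805, 128, 57, 31, 622 and 155 reads. LLC 1 and LLC 5 were again the highest, and of the LLC samples only LLC 4, below Control 3, was within the Control range. Means were 1.27 ± 0.827 CPM in Control (SD, n = 4) and 32.6 ± 55.7 CPM in LLC (SD, n = 6), of which LLC 1 gave 73.7%. On the log2 scale the fold change was 4.68 ± 1.34 (SE), a 25.7-fold difference (edgeR, adjusted p = 0.0591). Leaving LLC 1 out lowered the log2 fold change to 3.04 ± 0.80 (SE), 8.23-fold, and brought the adjusted p of the edgeR test to 0.0269, past the threshold. With both LLC 1 and LLC 5 left out it was 2.01 ± 0.49 (SE; edgeR, adjusted p = 0.0160), in a fit that called 6.76% of genes. The rise of Mt2 was thus smaller but past the threshold once its highest samples were removed. Exons of Mt2 overlap an antisense gene, Gm45774, which is not among the identifiers counted, so the part of antisense reads in Mt2 was not tested.

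The order of the samples was nearly the same for both metallothioneins. From the top it ran LLC 1, LLC 5, LLC 6, LLC 2 and LLC 3 for each gene, and Control 3 was the highest Control sample in both. LLC 1 exceeded the next highest LLC sample by 3.83-fold for Mt1 and 4.68-fold for Mt2. Among 11360 genes with a mean of at least 1 CPM in LLC, 37 had a larger ratio of LLC 1 to the next LLC sample than Mt1, and 18 a larger one than Mt2. No run of 50 bases of Mt1 or Mt2 transcripts was found in a transcript of any other gene of GENCODE release M21, so reads of one could be told from those of the other.

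**Figure D2:**
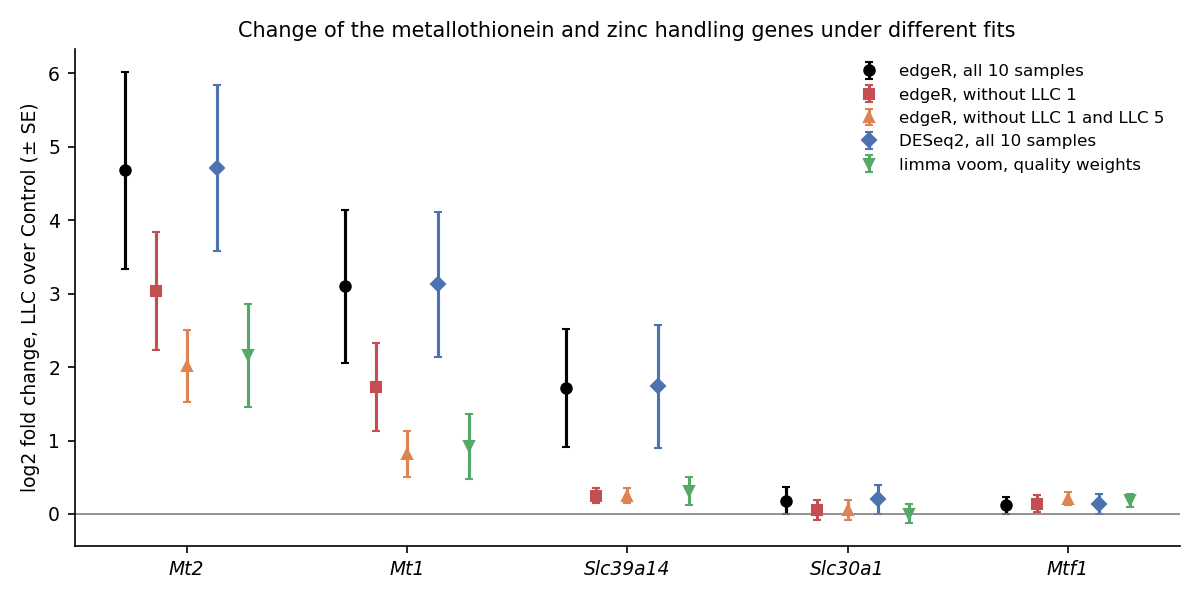
Log2 fold change of LLC over Control with its SE for the 5 genes under 5 fits: edgeR with all 10 samples, without LLC 1, and without LLC 1 and LLC 5, DESeq2 with all samples, and limma voom with sample quality weights. Mt2 runs from 4.68 with all samples to 2.01 without LLC 1 and LLC 5, Slc39a14 falls from 1.72 to 0.25 without LLC 1, and Mtf1 and Slc30a1 stay near 0.

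Although both genes followed the same order of samples, Mt2 changed more than Mt1. The ratio of Mt2 to Mt1 reads within a library does not depend on how libraries are scaled. As a log2 ratio it was -2.16, -1.56, -1.12 and -2.43 in Control 1 to 4, which means that Mt2 had fewer reads than Mt1 in each. In LLC 1 to 6 it was 0.03, -0.39, -0.80, -0.88, -0.25 and -0.26. Every LLC sample exceeded every Control sample, LLC 4 included, where neither gene was above the Control range. Control had a mean log2 ratio of -1.82 ± 0.59 (SD, n = 4) and LLC one of -0.42 ± 0.35 (SD, n = 6). Their difference of 1.39 had the lowest p that a two-sided exact permutation test of these 10 samples can give, 0.00952, or 0.0190 after adjustment over 2 ratios. With LLC 1 left out the groups differed by 1.30 (p = 0.0159 by the same exact test, again the lowest possible). In reads, Mt2 stood at 0.186 to 0.460 of Mt1 in Control and at 0.544 to 1.02 of Mt1 in LLC. The Control ratios rest on 13 to 46 reads of Mt2, which limits their precision.

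**Figure D3:**
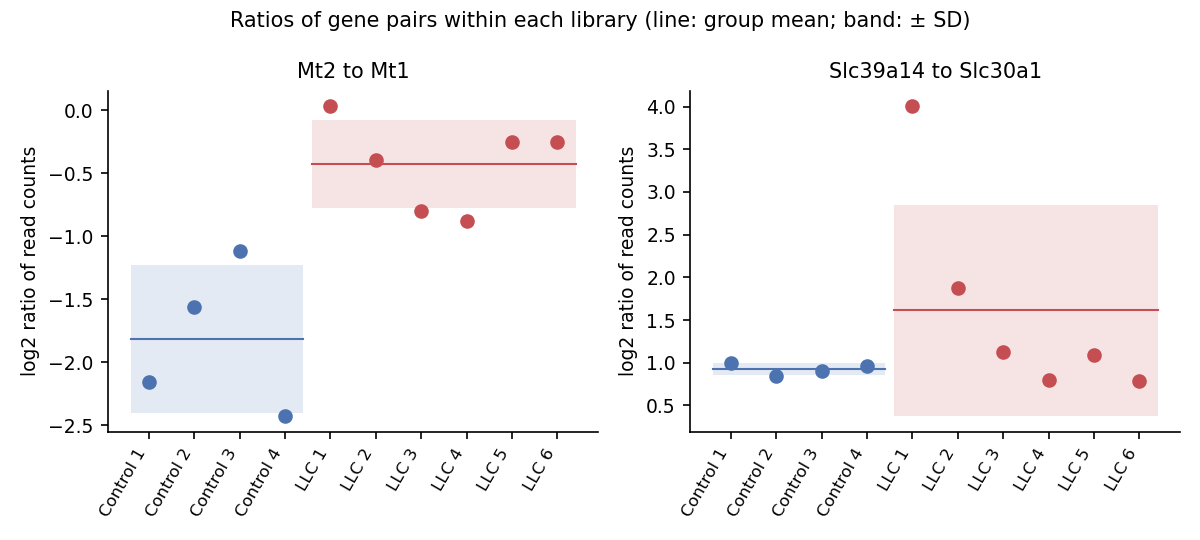
Log2 ratio of read counts within each library for Mt2 to Mt1 and for Slc39a14 to Slc30a1, with points for samples, lines for group means and bands for ± SD. All 6 LLC samples lie above all 4 Control samples for Mt2 to Mt1, while for Slc39a14 to Slc30a1 LLC 1 is at 4.01 and the other LLC samples lie between 0.78 and 1.88.

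Because Mt1 and Mt2 were high in the same samples, their upstream sequences are shown, with the exporter gene Slc30a1, another known target of MTF1, for comparison. The sequences come from RefSeq on build GRCm38.p6, forward strand, and run over the 250 bases before the annotated start. They are Mt1 at chr8:94178839-94179088, Mt2 at chr8:94172368-94172617 and Slc30a1 at chr1:191906531-191906780. Capitals mark matches to the MRE core, searched as TGCACNC and TGCGCNC on both strands.
Mt1: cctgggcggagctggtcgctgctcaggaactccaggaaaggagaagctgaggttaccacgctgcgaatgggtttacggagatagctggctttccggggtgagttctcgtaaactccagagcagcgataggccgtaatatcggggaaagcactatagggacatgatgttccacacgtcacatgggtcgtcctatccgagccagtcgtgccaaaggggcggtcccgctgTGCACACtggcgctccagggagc
Mt2: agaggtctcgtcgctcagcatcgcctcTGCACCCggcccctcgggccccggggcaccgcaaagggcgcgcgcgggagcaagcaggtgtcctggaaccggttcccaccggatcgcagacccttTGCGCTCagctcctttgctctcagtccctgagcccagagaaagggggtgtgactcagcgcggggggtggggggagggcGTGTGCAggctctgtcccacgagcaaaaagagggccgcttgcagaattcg
Slc30a1: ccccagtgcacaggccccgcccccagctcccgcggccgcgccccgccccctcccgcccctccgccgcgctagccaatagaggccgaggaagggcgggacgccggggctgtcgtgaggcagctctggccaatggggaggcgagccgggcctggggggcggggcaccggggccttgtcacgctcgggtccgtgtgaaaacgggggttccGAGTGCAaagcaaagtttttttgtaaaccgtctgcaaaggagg

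Each window in the RefSeq table spans 300 bases, these 250 and the 50 after the start. Over 300 bases Mt1 had 3 matches to the MRE core, the first at position -23 and the others at 3 and 21 counted from the start. Mt2 had 4 matches, at -223, -128, -50 and 5, of which the last 2 were on the reverse strand. In Slc30a1 there were 2, at -43 and 31, both on the reverse strand, and in Mtf1 there were 0. Of all 32817 windows, 25.7% held at least 1 match, 7.12% at least 2, 1.97% at least 3 and 0.518% at least 4. The STAT motif TTCNNNGAA was in none of the windows of these 4 genes and in 8.29% of all windows. The antioxidant response core TGACNNNGC was found once each in Mt2 and Slc30a1, and in 12.4% of all windows. GENCODE also places starts of Mt1 transcripts 122 and 152 bases after the RefSeq start, and those of Mt2 46 and 242 bases after it. Part of the region before the starts at 122, 152 and 242 lies outside the window. Positions of matches are counted from the RefSeq start alone. Slc39a14 had no window in the table. These matches are letters in a sequence and were not tested for binding.

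Mtf1 (ENSMUSG00000028890, chromosome 4, 124802104 to 124849800, forward strand) encodes the factor that senses zinc and binds MREs. Its level was much the same in all samples. It ran at 14.99, 17.2, 16.6 and 19.1 CPM in Control 1 to 4, and at 17.5, 19.8, 17.3, 21.5, 14.6 and 19.8 CPM in LLC 1 to 6. The groups overlapped, and LLC 1 lay within the Control range. Means were 17.0 ± 1.70 CPM in Control (SD, n = 4) and 18.4 ± 2.45 CPM in LLC (SD, n = 6). The log2 fold change was 0.12 ± 0.12 (SE; edgeR, adjusted p = 0.518), and 0.14 ± 0.11 without LLC 1 (SE; edgeR, adjusted p = 0.432). Exons of Mtf1 overlap those of the antisense gene 1110065P20Rik, which had 48 to 85 reads per sample. RNA level does not report on the activity of the factor, which is set by metal binding.

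Slc39a14 (ENSMUSG00000022094, chromosome 14, 70303469 to 70351425, reverse strand) encodes ZIP14, an importer of zinc, iron and manganese that is induced in inflammation. Control 1 to 4 had 14.9, 13.97, 14.7 and 13.5 CPM. LLC 1 had 196.6 CPM, and LLC 2 to 6 had 20.7, 16.7, 14.1, 16.3 and 16.7 CPM. A single sample was thus far above all others, 9.49-fold above the next LLC sample, and only 3 of the 11360 genes with a mean of at least 1 CPM in LLC had a larger ratio. LLC 5, second for the metallothioneins, was at 1.14 times the Control mean. Means were 14.3 ± 0.672 CPM in Control (SD, n = 4) and 46.9 ± 73.4 CPM in LLC (SD, n = 6), with 69.9% of the summed LLC level from LLC 1. The log2 fold change was 1.72 ± 0.80 (SE; edgeR, adjusted p = 0.187). Without LLC 1 it was 0.25 ± 0.10 (SE; edgeR, adjusted p = 0.121), or 1.19-fold, with 16.9 ± 2.39 CPM in LLC (SD, n = 5). The DESeq2 Wald test gave no p-value for this gene, because its rule on Cook's distance withholds a p where 1 sample weighs too much in the fit of a gene. Of the remaining 5 LLC samples, 4 were above every Control sample and LLC 4 was within the Control range.

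Slc30a1 (ENSMUSG00000037434, chromosome 1, 191906767 to 191913247, forward strand) encodes ZnT1, the zinc exporter of the cell surface. Control 1 to 4 had 7.47, 7.80, 7.84 and 6.90 CPM. LLC 1 to 6 had 12.2, 5.65, 7.65, 8.11, 7.63 and 9.73 CPM. LLC 1 was the highest and LLC 2 the lowest of all samples, so the groups overlapped in both directions. Its log2 fold change was 0.18 ± 0.18 (SE; edgeR, adjusted p = 0.521), and 0.06 ± 0.13 without LLC 1 (SE; edgeR, adjusted p = 0.817). In LLC 1, Slc30a1 was 1.63 times the Control mean, where Mt2 was 114 times and Mt1 35.2 times. The antisense gene 1700034H15Rik, whose exons overlap those of Slc30a1, had at most 6 reads in any sample. The log2 ratio of Slc39a14 to Slc30a1 reads averaged 0.93 ± 0.07 over Control (SD, n = 4) and 1.61 ± 1.24 over LLC (SD, n = 6). The difference of 0.68 was within the spread of LLC (two-sided exact permutation p = 0.295 before and after adjustment over 2 ratios). Without LLC 1 the LLC mean was 1.13 ± 0.44 (SD, n = 5) and the difference 0.21 (p = 0.492 by the same exact test).

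Per kilobase of annotated exon, the order of the levels differed between the groups, and the order of Mt1 and Mt2 rests on the lengths used. In Control, Mt1 had 3.21 ± 0.781 CPM per kilobase (SD, n = 4) and Mt2 2.16 ± 1.41. Mtf1 had 1.91 ± 0.191, Slc30a1 1.43 ± 0.0828 and Slc39a14 1.35 ± 0.0637 CPM per kilobase in the same samples. For neighbours in that order the ranges of mean ± SD overlapped, except for Mtf1 above Slc30a1. In LLC the medians were 13.5 CPM per kilobase for Mt2, 7.96 for Mt1, 2.09 for Mtf1, 1.58 for Slc39a14 and 1.50 for Slc30a1. By these lengths Mt2 was above Mt1 in LLC and below it in Control within each library. The ratio of Mt2 to Mt1 per kilobase was 0.394 to 0.975 in the 4 Control samples and 1.15 to 2.17 in the 6 LLC samples. Between mice the spread in LLC was wide, with 55.5 ± 94.7 CPM per kilobase for Mt2 and 27.6 ± 43.0 for Mt1 (SD, n = 6). In LLC 1 Mt2 reached 245.3 and Mt1 113.0 CPM per kilobase. These lengths are the union of all annotated exons, 1246 bases for Mt1 and 588 for Mt2, and the level per kilobase of a gene with a shorter main transcript is understated. The union of Mt1 is 1 block over the whole gene, where that of Mt2 has 3 blocks. In reads, Mt2 was at 0.544 to 1.02 of Mt1 in LLC. Which gene was higher per transcript in LLC was therefore not settled. The higher ratio in LLC than in Control does not depend on the lengths.

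The other metallothioneins were near or below detection. Mt3, known mainly from brain, had at most 7 reads in any sample and Mt4, known from stratified epithelia, had 0 in all 10, which allows at most 3 reads per library or 0.180 CPM in the shallowest. Both were left out by the filter.

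Among the zinc transporters, 7 of 10 listed Slc30 genes and 11 of 14 listed Slc39 genes were tested, with Slc30a1 and Slc39a14 included. The threshold in edgeR's test was passed by 0 genes of either family, against 5.63% of all tested genes. In lists this short, 0 is near that share. An unadjusted p of at most 0.05 in edgeR's test was found for 1 Slc30 gene and 0 Slc39 genes, against 27.4% of all tested genes. DESeq2 and limma voom called 0 in either family, where they called 7.56% and 7.86% of the genes they tested. The median log2 fold change was -0.04 in the Slc30 family and -0.02 in the Slc39 family, against 0.00 over all tested genes. Apart from Slc39a14, all tested zinc transporters lay between -0.22 and 0.44 on the log2 scale. The most uniform difference was that of Slc30a4, which encodes ZnT4, a transporter of intracellular vesicles. Its levels were 24.2, 24.4, 22.0 and 24.8 CPM in Control and 32.4, 30.3, 27.9, 27.0, 25.6 and 33.4 CPM in LLC. All 6 LLC samples exceeded all Control samples, which 6.40% of tested genes did. The log2 fold change of 0.31 ± 0.10 (SE) was below 1.5-fold (edgeR, adjusted p = 0.0810), as was that of 0.28 ± 0.09 without LLC 1 (SE; edgeR, adjusted p = 0.0479). The next largest differences among exporters were those of Slc30a2, at -0.18 ± 0.12 on the log2 scale (SE), and Slc30a5, at 0.15 ± 0.10 (SE). Among importers, Slc39a6 had 0.44 ± 0.21 (SE), Slc39a8 0.29 ± 0.35 (SE) and Slc39a3 -0.22 ± 0.14 (SE). No adjusted p-value of these 5 genes in edgeR's test was below 0.207. The genes left out for low counts were Slc30a3, Slc30a8, Slc30a10, Slc39a4, Slc39a5 and Slc39a12, and Slc30a3 and Slc30a10 had 0 reads in all samples.

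**Figure D4:**
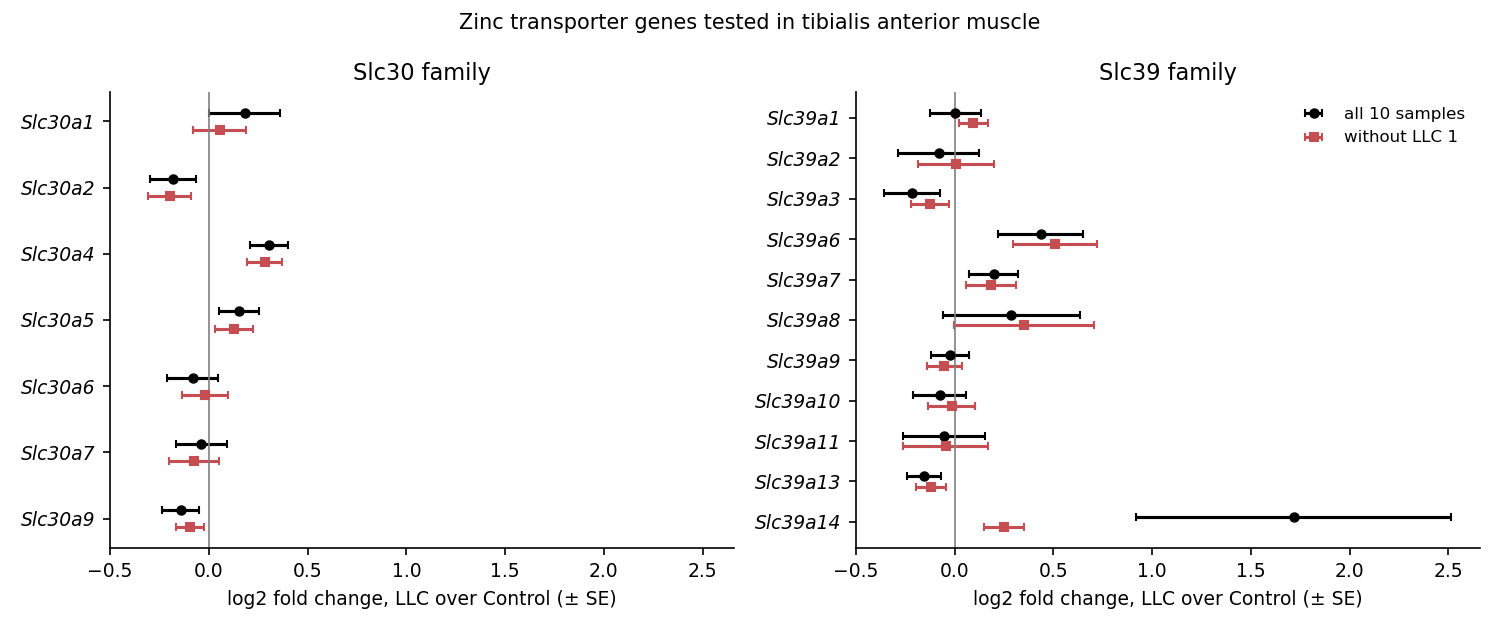
Log2 fold change of LLC over Control with its SE for the 7 Slc30 and 11 Slc39 genes tested, with all 10 samples and without LLC 1, in edgeR's fit. Slc39a14 is at 1.72 with all samples and at 0.25 without LLC 1, and the other genes lie between -0.22 and 0.51 in both fits.

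Of 8 genes listed as depending on MTF1, which include Mt1, Mt2 and Slc30a1, all were tested. In edgeR's test 0 of them passed the threshold, against 5.63% of all tested genes. Before adjustment p was at most 0.05 for 3, Mt1, Mt2 and Gclc, against 27.4% of all tested genes, and DESeq2 called 2, Mt1 and Mt2, where it called 7.56% of all genes. The median log2 fold change of the 8 was 0.22. Gclc, the catalytic subunit of the enzyme that begins glutathione synthesis, was above the Control range in all 6 LLC samples, as 6.40% of tested genes were. It had 12.98, 11.3, 10.8 and 12.2 CPM in Control and 21.3, 13.4, 13.3, 15.02, 22.5 and 18.8 CPM in LLC, with LLC 5 and LLC 1 again the highest. On the log2 scale it differed by 0.56 ± 0.17 (SE; edgeR, adjusted p = 0.0669), and it passed the threshold without LLC 2 (edgeR, adjusted p = 0.0416) or without LLC 3 (0.0450). Without LLC 1 it was at 0.50 ± 0.15, below 1.5-fold (SE; edgeR, adjusted p = 0.0482). Ndrg1 and Csrp1 had log2 fold changes of 0.26 ± 0.14 (SE) and -0.17 ± 0.08 (SE), with adjusted p-values of 0.252 and 0.197 in edgeR's test.

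Genes that handle iron and copper, metals that share carriers with zinc, were listed as well. Of 16 iron handling genes listed, 15 were matched and 13 tested, of which 1 rose, 2 fell and 10 did not pass, against 1.65% of all tested genes that rose and 3.99% that fell. The 2 that fell were Tfrc and Steap4, and Lcn2 rose. Before adjustment, p in edgeR's test was at most 0.05 for 8 of the 13, against 27.4% of all tested genes. Tfrc, the transferrin receptor that takes up iron, had 237.9, 263.7, 253.6 and 280.5 CPM in Control and 18.3, 142.2, 99.7, 90.7, 30.5 and 45.2 CPM in LLC. All LLC samples were below all Control samples, as for 9.57% of tested genes, and the samples highest for the metallothioneins, LLC 1 and LLC 5, were the lowest. Tfrc fell by a log2 fold change of -1.87 ± 0.45 (SE; edgeR, adjusted p = 0.0304), and of -1.66 without LLC 1. The call was lost when any Control sample, LLC 5 or LLC 6 was left out, with adjusted p-values of 0.0618 to 0.0831 in edgeR's test.

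Steap4, a metalloreductase of iron and copper, fell by a log2 fold change of -0.63 ± 0.11 (SE; edgeR, adjusted p = 0.00475), and of -0.67 without LLC 1. It had 25.4 to 33.6 CPM in Control and 15.5 to 20.9 CPM in LLC, with no overlap, but without Control 3 the change was -0.54 and fell short of 1.5-fold. Lcn2, lipocalin 2, which binds bacterial iron carriers, averaged 0.344 ± 0.147 CPM over Control (SD, n = 4) and 3.402 ± 1.19 CPM over LLC (SD, n = 6). On the log2 scale it rose by 3.29 ± 0.36 (SE; edgeR, adjusted p = 0.000402), and by 3.18 without LLC 1. With 7, 5, 10 and 4 reads in Control 1 to 4, Lcn2 passed the filter on low counts only through LLC samples, which favoured a rise. Lcn2 is also a neutrophil gene. Of 16 neutrophil markers 11 were tested and all 11 rose, against 1.65% of all tested genes. Ngp, Retnlg, Cd177 and Mmp8 had at most 3 reads in any Control sample, and S100a8, Ltf and Cxcr2 at most 7. None of the 11 had 10 reads in all 4 Control samples, so all 11 needed LLC samples to pass the filter. For such genes the filter itself favoured a rise. The 16 markers summed to 1.38 to 3.41 CPM in Control and 37.8 to 81.3 CPM in LLC. Elane and Mpo did not pass the filter, and the part of neutrophils in the rise of Lcn2 was not tested. LLC 1, highest for Mt1 and Mt2, had 46.8 CPM of these markers, and LLC 5 had 81.3 CPM, the most of any sample, and their part in the levels of Mt1 and Mt2 was not tested. Of the 5 erythroid markers tested 3 rose, against 1.65% of all tested genes. The erythroid list summed to 58.8 to 83.4 CPM in Control and 88.9 to 144.6 CPM in LLC. Macrophage markers summed to 29.6 to 44.8 CPM in Control and 24.4 to 41.6 CPM in LLC, endothelial markers to 288.1 to 367.7 and 292.0 to 338.5 CPM, and adipocyte markers to 153.4 to 191.8 and 142.1 to 206.6 CPM, so that these sums overlapped between the groups. Single genes of these lists moved within them, which a sum can hide. Lyz2 had the most reads of the macrophage markers in every sample, at 215 to 331 in Control and 214 to 480 in LLC. Of the 9 macrophage markers tested, 2 had a positive log2 fold change, against 50.3% of all tested genes, with a median of -0.50. The macrophage receptor Mrc1 and the endothelial receptor Kdr fell, by log2 fold changes of -1.05 and -1.13 (edgeR, adjusted p = 0.00335 and 0.0227). The adipocyte sum was mostly Fabp4, at 136.7 to 196.7 CPM over all samples, while Adipoq, Cfd and Cidec had log2 fold changes of -0.82, -0.82 and -0.90 and did not pass. Of 10 copper handling genes 9 were tested and 1 passed, against 5.63% of all tested genes. It was Sod3, the extracellular superoxide dismutase that carries copper and zinc. Its mean was 2.82 ± 0.575 CPM over Control (SD, n = 4) and 1.14 ± 0.472 CPM over LLC (SD, n = 6). The log2 fold change was -1.29 ± 0.27 (SE; edgeR, adjusted p = 0.0161), and -1.15 without LLC 1. The call was lost without Control 1 (edgeR, adjusted p = 0.0591) and without Control 3 (0.0614). Sod1, on the same list, did not pass. It had 1824 to 2226 reads in Control and 5047, 2174, 2129, 2193, 4145 and 2362 reads in LLC 1 to 6. Before adjustment, p in edgeR's test was at most 0.05 for 3 of the 9 copper handling genes, against 27.4% of all tested genes. Fibro-adipogenic markers, which mark connective tissue cells, summed to 480.1 to 598.3 CPM in Control and 111.2 to 188.3 CPM in LLC. All 8 fell, against 3.99% of all tested genes, and their part in the fall of Sod3 was not tested.

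**Figure D5:**
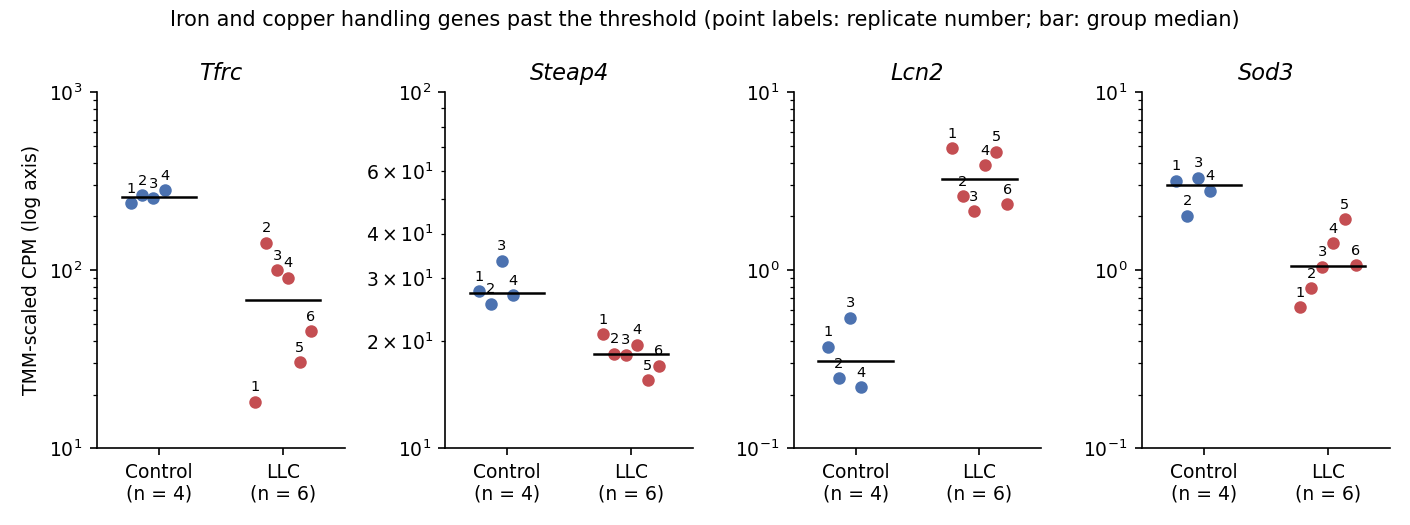
Level of the iron handling genes Tfrc, Steap4 and Lcn2 and the copper and zinc enzyme gene Sod3 in each sample, in TMM-scaled CPM on a log axis, with points for mice labelled by replicate number and bars for group medians. The groups do not overlap in any of the 4 genes, and LLC 1 is the lowest sample for Tfrc, at 18.3 CPM.

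A further pair of lists held genes of the pathways known to induce metallothioneins. Of 13 glucocorticoid-responsive genes, 12 had a positive log2 fold change, against 50.3% of all tested genes, with a median of 0.95. An unadjusted p of at most 0.05 in edgeR's test was found for 8 of the 13, against 27.4% of all tested genes. The threshold was passed by 1, Pdk4, a kinase that limits glucose oxidation, where 5.63% of all tested genes passed. Pdk4 had 375.3 to 648.9 CPM in Control and 1982, 580.3, 1405, 843.9, 2009 and 1139 CPM in LLC 1 to 6, a log2 fold change of 1.23 ± 0.33 (SE; edgeR, adjusted p = 0.0480). Its call was lost without any 1 of the Control samples and without LLC 3, LLC 5 or LLC 6, with adjusted p-values of 0.0693 to 0.137 in edgeR's test. Without LLC 1 the log2 fold change of Pdk4 was 1.09, and 4 of the 13 rose, against 2.28% of all genes tested in that fit. The summed level of the list was 1088 to 1369 CPM in Control and was highest in LLC 1 and LLC 5, at 3733 and 3389 CPM. Pdk4 alone gave 1982 and 2009 CPM of these 2 sums.

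Of 12 genes of the interleukin-6 and STAT3 response, 4 rose, 0 fell and 8 did not pass, with a median log2 fold change of 1.26, where 1.65% of all tested genes rose. Unadjusted p in edgeR's test was at most 0.05 for 11 of the 12, against 27.4% of all tested genes. Without LLC 1 there were 8 that rose, against 2.28% of all genes tested in that fit. The 4 were Stat3, which transmits the signal, Bcl3, an NF-κB regulator, Osmr, the receptor of oncostatin M, and Lrg1, a secreted acute-phase protein. Their log2 fold changes were 0.74 ± 0.15, 1.59 ± 0.34, 1.24 ± 0.18 and 1.36 ± 0.17 (SE), and 0.68, 1.68, 1.15 and 1.32 without LLC 1. In all 4 genes every LLC sample exceeded every Control sample, as in 6.40% of all tested genes. Stat3 had 39.3 to 40.3 CPM in Control and 50.2 to 83.1 CPM in LLC, with LLC 5 and LLC 1 the highest, and Osmr had 5.88 to 9.84 CPM in Control and 12.8 to 22.1 CPM in LLC. The call of Bcl3 was lost without Control 1, Control 2 or Control 4, with adjusted p-values of 0.0542 to 0.0633 in edgeR's test. The summed level of the list was highest in LLC 1 and LLC 5, at 557.4 and 452.7 CPM, against 225.7 to 238.9 CPM in Control. Il6st had the most reads of this list in every sample, at 2653 to 3087 in Control and 5061 in LLC 1. Cebpd was on this list and on the glucocorticoid list, so the lists are not separate. The part of either pathway in the change of Mt1 and Mt2 was not tested.

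The genes whose pattern was most like that of Mt1, Mt2 and Slc39a14 were found by the root mean square distance over the 10 samples between log2 CPM values, each taken relative to the Control mean. Nearest to Mt1 among 12690 genes were Cdkn1a, a cell cycle inhibitor, at a distance of 0.48, Il6ra, the interleukin-6 receptor, at 0.51, and Trim63, a ubiquitin ligase of muscle atrophy, at 0.54. All 3 were highest in LLC 1 and next in LLC 5, with 246.4 and 45.2 CPM for Cdkn1a against 9.61 CPM on average in Control. For Mt2 the nearest were Mt1 at 1.08, Gm15943, which overlaps Fbxo32 on the opposite strand, at 1.11 and Chil3, a chitinase-like protein of myeloid cells, at 1.19, all farther away than the genes nearest to Mt1. For Slc39a14 the nearest were Mfhas1 at 0.23, Cpne2 at 0.26 and Spsb1 at 0.28. Each of these was high in LLC 1 alone, with 91.2, 70.9 and 32.4 CPM there against 11.8, 5.11 and 5.70 CPM in LLC 5. The genes near Mt2 other than Mt1 passed the threshold (edgeR, adjusted p = 0.0321 and 0.0206). Both were chosen by their pattern over these same samples, so their p-values give no separate evidence of a change. Chil3 averaged 0.0506 CPM in Control, below the floor of detection, and passed the filter only through LLC samples. None of the 6 genes near Mt1 or Slc39a14 passed the threshold in edgeR's test, with adjusted p-values of 0.0718 to 0.221.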

How the data were processed

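Per the labels and the study's methods, total RNA was made into stranded paired-end libraries, all run in a single lane. The authors mapped reads to mm10 with TopHat2 and counted them with HTSeq, for which the methods state default settings. How strand was handled in the deposited counts was not checked. What was deposited is 1 raw count of reads for each Ensembl gene identifier in each library. The methods name RefSeq genes, so the annotation behind the counts is not given in the sources used here. Coordinates are from GENCODE M21 (GRCm38), which holds 37693 of the 39179 identifiers, and 154 of 155 listed symbols were matched.

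Genes were kept by filterByExpr (minimum count 10), libraries scaled by TMM, and the difference of LLC from Control fitted over all 10 samples, without covariates, by the quasi-likelihood test of edgeR 4.0.16 in R 4.3.3 with Benjamini-Hochberg adjustment. DESeq2 1.42.0 and limma 3.58.1 were alternatives. SEs came from the F statistic. Log2 CPM had a prior count of 2. Ratios were tested with scipy 1.17.1. The floor of detection was 3 counts, 0.141 to 0.180 CPM, for counting error only. The edgeR step was tested on simulated counts. Chi-square per degree of freedom between libraries of a group was at least 3.93, so none was counted as a duplicate.

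The members and lists were chosen with earlier results of these data known. Named genes were the 5 members, listed metal genes past the threshold or otherwise the 3 with the largest change, listed glucocorticoid and STAT3 genes past the threshold, and the 3 nearest genes. Alternatives covered scaling, filters, tests, each sample left out, and the replicate number as a block.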

Additional observations from a re-analysis of the deposited data

Results flagged for a closer look

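In 23 genes and 2 ratios, 50 groups of samples were searched for a distant sample by the gap to the nearest sample over the range of the group. There were 5 such samples, against 2.5 given by chance at 1 in 20, and LLC 1 was the distant sample in 4. LLC 1 was the highest LLC sample for Slc39a14, with a gap ratio of 0.964, for Mt2, with 0.795, for Mt1, with 0.755, and for the log2 ratio of Slc39a14 to Slc30a1, with 0.661. These 4 share 1 library and are not independent. Control 2 was the lowest Control sample for Pdk4, with a gap ratio of 0.834.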

How the results depend on the processing

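With adjusted p-values from edgeR's quasi-likelihood test unless another tool is named, the number of genes past the threshold was 715 and moved by over 1.5 times to 475 with at least 10 counts in every sample, to 1112 with DESeq2 and to 1084 with DESeq2 without LLC 1, and ranged from 415 to 966 with each sample left out (415 to 438 without 1 Control sample). Mt1 passed with DESeq2, at 3.13. Mt2 passed with no filter on low counts (4.71), with DESeq2 (4.71, and 3.05 without LLC 1), with limma voom (2.16) and without LLC 1 and LLC 5 (2.01), and its log2 fold change ranged from 3.04 to 5.22 with each sample left out. It passed in 3 of those 10 fits, without LLC 1, LLC 3 or LLC 4, where its adjusted p-values were 0.0269, 0.0464 and 0.0342. The cause was not tested. Limma voom lowered the log2 fold change of Mt1 to 0.92 and of Slc39a14 to 0.31. With each sample left out Mt1 ranged from 1.73 to 3.35 and Slc39a14 from 0.25 to 1.90, both lowest without LLC 1. Mtf1, Slc30a1 and the counts of both zinc transporter families kept their direction and side of the threshold in every alternative run, as did Slc39a14 except with DESeq2 on all samples, which gave it no p-value. No alternative reversed a named gene. The other genes that passed lost their call in 11 of 22 alternatives (Pdk4), 8 of 22 (Tfrc), 5 of 21 (Bcl3), 4 of 22 (Stat3), 3 of 22 (Sod3, Steap4) and 1 of 22 (Osmr), and Lcn2 and Lrg1 kept it in all run.

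The replicate numbers belong to different animals, and deviations of same-numbered samples correlated at -0.08 to 0.13. With the replicate block over the 8 samples of shared number 107 genes passed, against 299 without it. Leaving LLC 1 and LLC 5 out, and DESeq2 without LLC 1, were chosen after seeing the data. Depth limited Mt2 in Control and Mt3.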
